A study of Panax notoginseng with 12 samples.

Results

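The GABA shunt genes of Panax notoginseng roots, those for glutamate decarboxylase, GABA transaminase, succinate-semialdehyde dehydrogenase and the GABA transporters, are described here across 4 nitrogen treatments. They were chosen by name: a locus entered when the protein description of its best match held the words glutamate decarboxylase, GABA, gamma-aminobutyrate or succinate-semialdehyde. Of 146330 assembled loci 18 met this, and 16 of them were above 0 FPKM (fragments scaled by transcript length and library size) in at least 1 library, out of 58721 loci above 0 in the whole table. The 16 were 8 glutamate decarboxylase loci, 1 GABA transaminase locus, 1 succinate-semialdehyde dehydrogenase locus and 6 GABA transporter loci. The other 2, XLOC_081946 and XLOC_081947 on scaffold 25315, are described as glutamate decarboxylase-like and are listed at 0 in all 12 libraries.

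P. notoginseng is a medicinal ginseng species, and the study asked how nitrate bears on the injury that ammonium does to its roots. Root RNA was sequenced from hydroponic seedlings given 15 mM ammonium (15A), 15 mM nitrate (15N), or 15 mM of each (15AN), and from control seedlings (CK) on a solution without added nitrogen. By the study's methods nitrate was given as calcium nitrate, ammonium as ammonium sulfate, and both together as ammonium nitrate. The partner ions and the total nitrogen thus differed between the groups, and their part cannot be told apart from that of the nitrogen form. Each group has 3 libraries. The study's methods describe 2-year-old seedlings, pretreated for 1 week in a complete nutrient solution that held both nitrogen forms and harvested on day 3, with RNA pooled, while the sample labels give a 3-day age, so the age of the plants is not settled. No source says whether the libraries of a group came from separate pots, and p-values therefore measure the spread between these libraries.

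GABA (gamma-aminobutyric acid) is a non-protein amino acid that plant tissues accumulate under low oxygen, acidity and other stresses. Glutamate decarboxylase makes it in the cytosol from glutamate, in a reaction that consumes a proton, and most plant forms of the enzyme are activated by calcium-bound calmodulin. GABA transaminase then turns GABA into succinic semialdehyde, and succinate-semialdehyde dehydrogenase oxidises that to succinate, so that the route bypasses part of the TCA cycle. GABA transporters move GABA across membranes.

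Summed over all loci, FPKM ran from 2042250 to 2593466 per 15A library, 2002096 to 2174581 per 15N library, 1776098 to 1800638 per 15AN library and 1420310 to 1517711 per CK library, so that scaling every library to the same total moves the median log2 fold change of all loci tested against CK by -0.58 for 15A, -0.49 for 15N and -0.27 for 15AN. Of 76 loci whose descriptions held words of root markers (Casparian strip and CASP-like proteins, SHORT-ROOT, SCARECROW and others), 64 were above 0. The root list summed to 737 to 827 FPKM (15A), 656 to 711 (15N) and 667 to 689 (15AN), against 748 to 792 (CK). Its words also take in proteins described as like these, and whether each locus is specific to roots was not tested. Of 41 loci for light-harvesting proteins, photosystem subunits and the small subunit of Rubisco, which mark green tissue, 32 were above 0. They summed to 1452 FPKM in 15A replicate 1 and to 447 and 467 in the other 15A libraries, against 443 to 498 with 15N, 419.9 to 463 with 15AN and 965 to 1027 with CK. All 10 loci of a low-oxygen list (alcohol dehydrogenase, pyruvate decarboxylase and others) were above 0, and they summed to 2480.2 to 3325 FPKM per library with 15A, 2519.6 to 2621 with 15N and 1796 to 1953 with 15AN, against 1472 to 1512 with CK. The library at 3325 was again 15A replicate 1, and for many of the results that move when it is left out, the value without it is given. The part of these lists in the results on the GABA shunt was not tested.

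Loci whose mean reached 5 FPKM in any group were tested with limma on log2(FPKM + 1), and a locus is called higher or lower where the adjusted p was under 0.05 and the log2 fold change over 1 in size. Of the 16 loci, 14 passed the filter on low values; the 2 others are transporters. Against CK, 3 of the 14 were called in 15A, where 14.3% of all loci tested were called: 2 were higher (7.49% of all loci) and 1 lower (6.82%). In 15N 4 were called, where 14.5% of all loci were: 2 were higher (6.85%) and 2 lower (7.64%). In 15AN 2 were called, both higher, where 12.2% of all loci were called and 5.3% were higher. With libraries scaled to the same total the split of the calls turned: 1 was higher and 3 lower for 15A and for 15N, and 1 was higher and 2 lower for 15AN. The split over all loci tested turned too. Under this scaling 2.82%, 3.14% and 3.31% of them were higher and 19.7%, 16.5% and 10.5% lower in 15A, 15N and 15AN. Without the fold threshold, 7, 11 and 10 of the 14 had an adjusted p under 0.05 in 15A, 15N and 15AN, where 51.2%, 49.7% and 45.3% of all loci did. The loci past both thresholds were all glutamate decarboxylase loci, and every comparison with CK uses the same 3 CK libraries. The median log2 fold change over the 14 loci was -0.08 for 15A, -0.12 for 15N and -0.01 for 15AN, beside 0.08, 0.08 and 0.07 over all loci tested.

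XLOC_067700 is a glutamate decarboxylase locus on the minus strand of scaffold 21159, from 29731 to 32268 in the genome assembly the study used, which overlaps the annotated gene model Ppse_ynau_057846. Its best protein and nucleotide matches are to a glutamate decarboxylase of the cotton Gossypium raimondii. It had 27.4, 37.8 and 47.0 FPKM in 15A, 43.6, 43.9 and 46.7 in 15N, and 33.0, 30.2 and 24.0 in 15AN, against 10.6, 10.3 and 11 in CK. All 9 nitrogen-treated libraries lay above all 3 CK libraries. The log2 fold change against CK was 1.69 ± 0.17 for 15A (SE, adjusted p = 2.1e-05), 1.98 ± 0.17 for 15N (adjusted p = 7.5e-06) and 1.36 ± 0.17 for 15AN (adjusted p = 0.00012). These rises held when any 1 library was left out (1.52 to 1.90 for 15A, 1.95 to 2.0 for 15N, 1.27 to 1.49 for 15AN) and when libraries were scaled to the same total (1.10, 1.48 and 1.10). In 15A the lowest value was that of replicate 1, and without it the change was 1.90.

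Whether the level differed between the nitrogen forms was tested directly. XLOC_067700 averaged 29.1 ± 4.57 FPKM in 15AN and 44.7 ± 1.68 in 15N (SD, n = 3 each), with no overlap, and the difference of -0.62 ± 0.17 on the log2 scale had an adjusted p of 0.023 but lay inside the fold threshold; scaled to the same total it was -0.38 (adjusted p = 0.21), and with 1 library left out the adjusted p reached 0.084. Between 15N and 15A (37.4 ± 9.80 FPKM) the log2 difference was 0.28 with an adjusted p of 0.26 and a 95% interval from -0.09 to 0.66, and the ranges overlapped; without 15A replicate 1 it was 0.08 (adjusted p = 0.67), and 15AN against 15A was then -0.53 (adjusted p = 0.0094). In no library did the combined treatment reach the level of 15N.

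XLOC_059331, also described as a glutamate decarboxylase, is a fragment: it spans 219 nt on scaffold 19001 (91470 to 91689, minus strand, gene model Ppse_ynau_086777), too short for a whole decarboxylase gene. It had 16.6, 24.1 and 36.0 FPKM in 15A, 25.3, 26.0 and 22.5 in 15N, and 24.2, 22.6 and 25.9 in 15AN, against 8.21, 10.6 and 13.5 in CK. The treated and CK ranges did not overlap in any of the 3 comparisons, and the treated groups lay at one level, with log2 fold changes against CK of 1.14 for 15A (adjusted p = 0.0027), 1.15 for 15N (adjusted p = 0.0027) and 1.13 for 15AN (adjusted p = 0.0034), each with an SE of 0.24. These are close to the threshold: without CK replicate 1 they were 0.97, 0.98 and 0.96, and with libraries scaled to the same total 0.55, 0.65 and 0.86, and none was then called, nor with 5 added to FPKM in place of 1 (0.92, 0.92 and 0.91). The change in 15A was 0.86 without 15A replicate 3 and 1.40 without 15A replicate 1.

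XLOC_079358 (scaffold 24456, 58651 to 72828, plus strand, gene model Ppse_ynau_112609), whose protein match is glutamate decarboxylase 4 of a tobacco, Nicotiana sylvestris, was the most abundant decarboxylase locus by mean in 15A and 15N. It had 102, 115 and 95.1 FPKM in 15A, 75.9, 79.0 and 71.6 in 15N, and 83.9, 76.2 and 70.6 in 15AN, against 56.2, 56.2 and 45.5 in CK. The 3 treated groups lay above CK without overlap, and 15A lay above the other 2 treated groups without overlap. The log2 fold changes were 0.97 ± 0.11 for 15A (adjusted p = 3.4e-05), 0.52 for 15N (adjusted p = 0.0023) and 0.54 for 15AN (adjusted p = 0.002), so that none passed the fold threshold. The value in 15A stood at the threshold, at 1.04 without 15A replicate 3 and 1.02 without CK replicate 1 or CK replicate 2. Scaled to the same total the values were 0.35 and 0.26 for 15A and 15AN, and the sign turned for 15N, to -0.01. Set against 15A, the log2 fold change was -0.46 for 15N (adjusted p = 0.012) and -0.43 for 15AN (adjusted p = 0.0097). With libraries scaled to the same total these were -0.36 (adjusted p = 0.064) and -0.10 (adjusted p = 0.54).

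**Figure D1:**
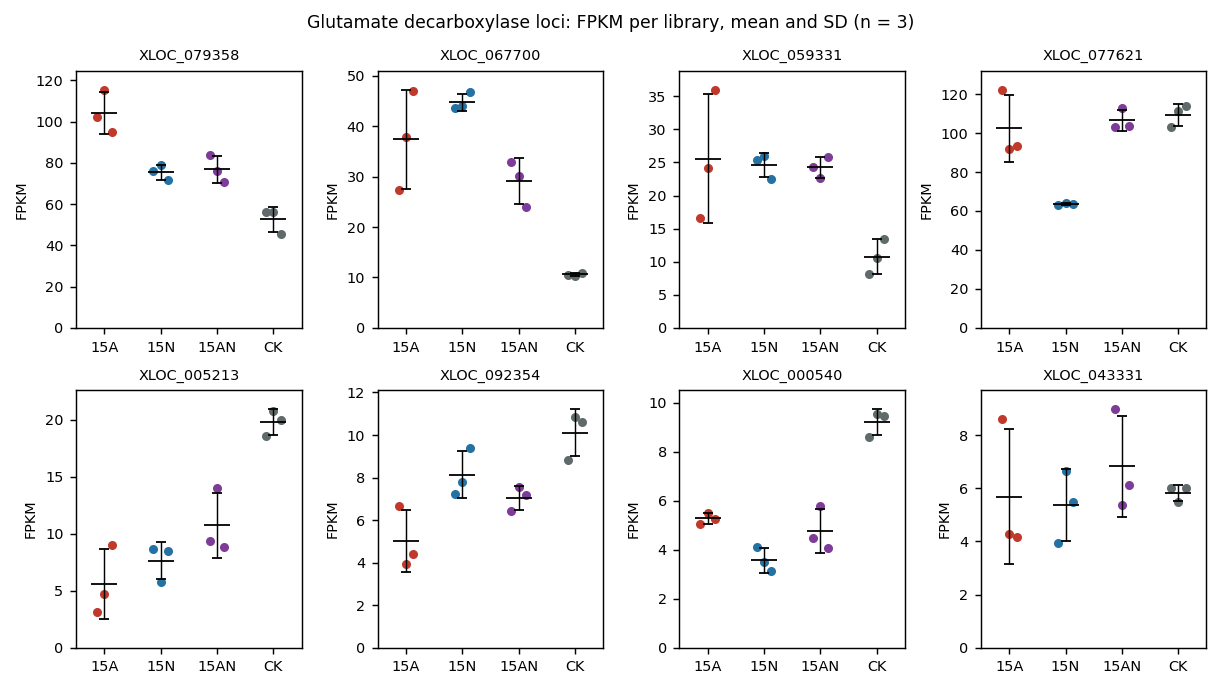
FPKM of the 8 glutamate decarboxylase loci above 0, one panel each with its own FPKM axis from 0, in 15A, 15N, 15AN and CK. Points are single libraries in the order of replicates 1 to 3, the horizontal mark is the mean and the bar is the SD (n = 3). XLOC_067700 and XLOC_059331 lie above CK in all treated libraries, while XLOC_005213 and XLOC_000540 lie below CK in all treated libraries.

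The other 5 decarboxylase loci share a best nucleotide match, the glutamate decarboxylase mRNA of Panax ginseng, a close relative. Loci that share a match may be near copies or pieces of one gene, so that reads may be split among them and the single values are uncertain. XLOC_077621 (scaffold 2392, 9062 to 15747, gene model Ppse_ynau_031755) was the most abundant of them. It had 122, 91.7 and 93.3 FPKM in 15A, 62.9, 64.1 and 63.3 in 15N, and 103, 113 and 104 in 15AN, against 103, 111 and 114 in CK. The 15N libraries stood below all others, and 15A and 15AN overlapped CK. The log2 fold change in 15N was -0.78 ± 0.10 (adjusted p = 0.00013), short of the fold threshold, and it was -1.30 with scaling to the same total and -1.05 with quantile normalization, which passed it. In 15A the value was -0.11 (adjusted p = 0.41), and without 15A replicate 1, the library at 122 FPKM, it was -0.24 (adjusted p = 0.0062), the other 15A libraries being below all CK libraries. Set against 15N, the 15AN level was higher by 0.74 on the log2 scale (adjusted p = 0.00053).

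XLOC_005213 moved the other way from XLOC_067700. It lies on a short contig, C4884525 (23 to 563), overlaps no annotated gene model and has no strand. It had 3.10, 4.68 and 8.99 FPKM in 15A, 8.65, 5.77 and 8.49 in 15N, and 9.39, 14 and 8.85 in 15AN, against 18.6, 20.8 and 19.9 in CK. All treated libraries lay below all CK libraries. It fell in 15A, with a log2 fold change of -1.75 ± 0.29 (adjusted p = 0.00065), and in 15N (-1.28 ± 0.29, adjusted p = 0.0045), where adding 5 in place of 1 gave -0.98 and ended the call; in 15AN the value of -0.85 (adjusted p = 0.038) was not called. Without 15A replicate 1 the value in 15A was -1.46. In 15AN it ran from -1.04 to -0.73 with 1 library left out, with an adjusted p of up to 0.12. It was -1.04, and called, without 15AN replicate 2, and -1.13, and called, with libraries scaled to the same total. Set against 15A, the 15AN level had a log2 fold change of 0.91 (adjusted p = 0.035, not called), which was 1.26 without 15A replicate 3 and 1.02 without 15AN replicate 3, both called, and 0.61 (adjusted p = 0.097) without 15A replicate 1; the adjusted p reached 0.12 when other libraries were left out.

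XLOC_000540, on contig C4735825 (1 to 913, gene model Ppse_ynau_000351), had 5.06, 5.52 and 5.24 FPKM in 15A, 4.10, 3.48 and 3.12 in 15N, and 4.46, 5.77 and 4.06 in 15AN, against 8.60, 9.54 and 9.46 in CK. Every treated library was below every CK library, and it fell in 15N by 1.16 on the log2 scale (SE 0.12, adjusted p = 3.1e-05), a call that ended with 5 added in place of 1 (-0.73). The values in 15A (-0.70, adjusted p = 0.00089) and 15AN (-0.83, adjusted p = 0.00037) were inside the fold threshold, and passed it at -1.25 and -1.11 with libraries scaled to the same total. XLOC_092354 (scaffold 29189, 30803 to 32760, gene model Ppse_ynau_010882) had 6.66, 3.93 and 4.43 FPKM in 15A, 7.24, 7.80 and 9.38 in 15N, and 6.43, 7.54 and 7.17 in 15AN, against 8.85, 10.8 and 10.6 in CK. Its mean was lowest in 15A, with a log2 fold change of -0.91 (adjusted p = 0.001), which became -1.10 and was called without 15A replicate 1, and -1.47 with same-total scaling. XLOC_043331 (scaffold 15150, gene model Ppse_ynau_041183) ranged from 3.95 to 8.96 FPKM over the 12 libraries, all 4 groups overlapped, and its log2 fold changes of -0.09, -0.13 and 0.17 were smaller than their SE of 0.26. In 15A the value was -0.38 (adjusted p = 0.16) without 15A replicate 1, up to 0.06 without another library, and -0.64 (adjusted p = 0.037) with same-total scaling.

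The plot of log2 fold changes shows how the decarboxylase loci parted. The 3 loci with nucleotide matches outside P. ginseng were above CK in every treated library. The point estimates of the 5 loci with the P. ginseng nucleotide match were below 0 in 14 of 15 comparisons with CK, the exception being XLOC_043331 in 15AN. Both statements depend on the scaling. With libraries scaled to the same total, XLOC_079358 was at -0.01 in 15N and XLOC_043331 at -0.08 in 15AN. XLOC_059331 then had an adjusted p in limma of 0.13 in 15A and 0.081 in 15N. How many of all loci lay wholly above CK in this way was not counted. In 15A, 15N and 15AN 51.2%, 49.7% and 45.3% of all loci had an adjusted p under 0.05 in limma against CK, in either direction, which is a different measure. This division was made after the values were seen, and it is a description with no test.

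**Figure D2:**
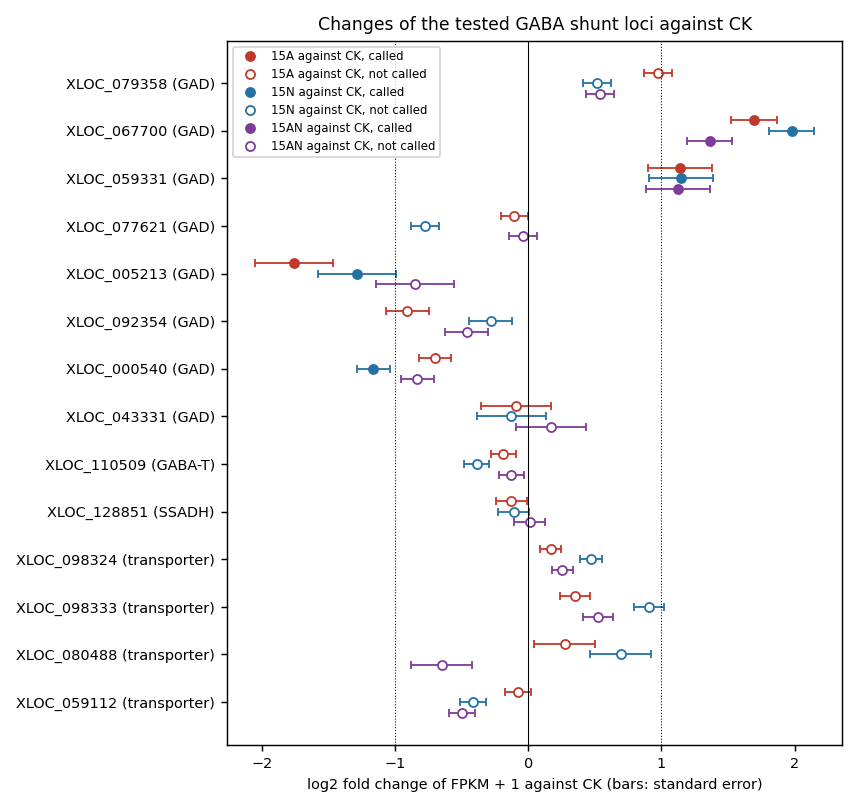
Log2 fold change of FPKM + 1 against CK for the 14 loci tested, in 15A, 15N and 15AN; bars are standard errors, filled points are called and open points are not, and dotted lines mark -1 and 1. GAD is glutamate decarboxylase, GABA-T is GABA transaminase and SSADH is succinate-semialdehyde dehydrogenase. All called points belong to decarboxylase loci, with XLOC_067700 at 1.69, 1.98 and 1.36 and XLOC_005213 at -1.75 and -1.28.

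Summed FPKM of the 8 decarboxylase loci was 291 ± 3.40 for 15A, 233 ± 3.25 for 15N and 266 ± 13.5 for 15AN, against 228 ± 7.57 in CK (SD, n = 3 each). The 15A and 15AN sums lay above CK in every library, while the 15N range of 231 to 237 overlapped the CK range of 220.1 to 235. This order turned when every library was scaled to the mean total: the sum was then 247 ± 30.3 for 15A, 211 ± 13 for 15N and 284 ± 14.3 for 15AN, against 298 ± 9.50 in CK, with the 15A and 15N libraries below all CK libraries and 15AN overlapping CK. The make-up of the sum differed as well. The subgroup used for this was formed after the values were seen, so its larger share in treated roots follows in part from that choice. The sum also counts the fragment XLOC_059331, and loci that may be pieces of the same gene, as separate loci. The 3 loci with other nucleotide matches held 57.4 ± 6.40% of the sum for 15A, 62.2 ± 0.971% for 15N and 48.9 ± 2.42% for 15AN, against 32.4 ± 1.84% in CK. XLOC_067700 alone held 12.8% for 15A, 19.2% for 15N and 10.9% for 15AN, against 4.65% in CK, and XLOC_077621 held 35.2%, 27.2% and 40.1% in the same treatments, against 47.9% in CK. Shares of a sum do not depend on how a library is scaled. In root tissue, fewer cells of a type and less RNA per cell cannot be told apart.

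**Figure D3:**
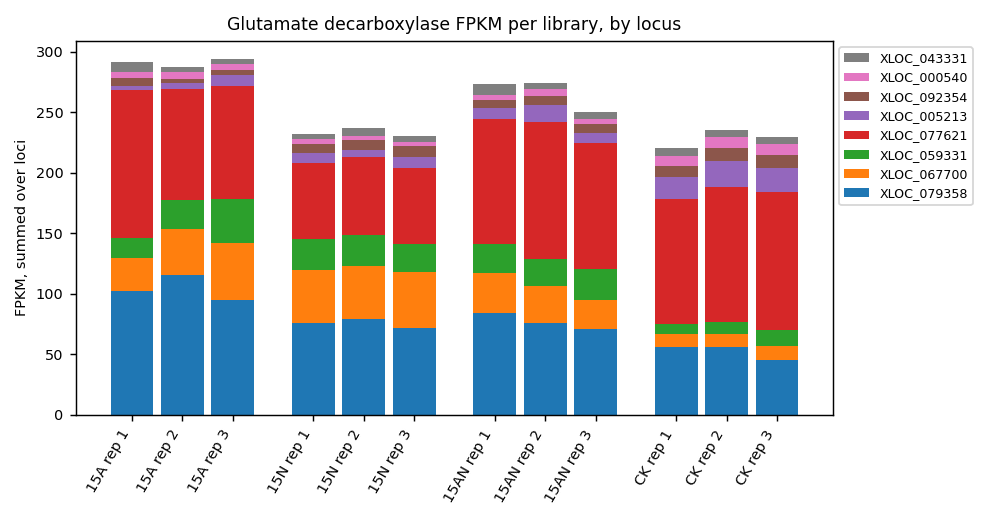
Summed FPKM of the glutamate decarboxylase loci in each of the 12 libraries, stacked by locus, with 15A, 15N and 15AN left of CK. The sums run from 288 to 294 (15A), 231 to 237 (15N), 250.4 to 274 (15AN) and 220.1 to 235 (CK), and the share taken by XLOC_077621 is largest in CK.

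For each enzyme after the decarboxylase, the words used to choose loci matched 1 expressed locus. Loci of these enzymes described in other words would not have entered. XLOC_110509 (scaffold 36142, 55399 to 80569, gene model Ppse_ynau_119498) is described as the chloroplastic GABA transaminase 3, a form named for its place in the plastid; 1 other locus has the same coordinates. It had 57.6, 45.6 and 43.7 FPKM in 15A, 41.0, 43.0 and 42.6 in 15N, and 48.3, 52.7 and 51.1 in 15AN, against 53.4, 55.3 and 57.9 in CK. The 15N libraries were all below CK, with a log2 fold change of -0.39 ± 0.09 (adjusted p = 0.0065, not called). In 15A the value was -0.19 (95% interval -0.40 to 0.02) with replicate 1 inside the CK range, and -0.31 (adjusted p = 0.0013) without it. In 15AN it was -0.13 (95% interval -0.34 to 0.08).

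XLOC_128851 (scaffold 678, 53483 to 66622, gene model Ppse_ynau_102225) is described as a mitochondrial succinate-semialdehyde dehydrogenase, the last enzyme of the shunt, and also shares its coordinates with 1 other locus. It had 44.6, 32.5 and 31.0 FPKM in 15A, 34.5, 37.9 and 35.8 in 15N, and 37.9, 40.8 and 39.0 in 15AN, against 38.6, 38.7 and 39.4 in CK. The 15A libraries lay on both sides of CK, and the CK libraries were within 1 FPKM of each other. No difference from CK passed the test, with log2 fold changes of -0.13 for 15A (95% interval -0.38 to 0.13), -0.11 for 15N (-0.37 to 0.15) and 0.01 for 15AN (-0.25 to 0.27). Without 15A replicate 1 the value in 15A was -0.29 (adjusted p = 0.0018). Scaling to the same total put the transaminase at -0.81, -0.91 and -0.42 (15A, 15N and 15AN), and the dehydrogenase at -0.74, -0.63 and -0.27, which turns the sign of the dehydrogenase in 15AN.

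The transporter with the highest level was XLOC_098324, described as probable GABA transporter 2, an amino acid transporter of the kind that carries GABA. It shares its coordinates, scaffold 3157 from 110754 to 134367, with XLOC_098333, which has the same description on the opposite strand, and 5 loci in all carry these coordinates. The sources used here do not say that strand was used in counting, so reads of the pair cannot be told apart. XLOC_098324 had 163, 150 and 136 FPKM in 15A, 183, 175 and 198 in 15N, and 168, 157 and 153 in 15AN, against 135, 127 and 137 in CK. XLOC_098333 had 105, 81.6 and 80.8 FPKM in 15A, 146, 125 and 121 in 15N, and 95.8, 102 and 102 in 15AN, against 73.3, 71.3 and 63.1 in CK. Both were highest in 15N, where no library overlapped another group. The log2 fold changes in 15N were 0.47 ± 0.08 (adjusted p = 0.00072) and 0.91 ± 0.11 (adjusted p = 9.4e-05) against CK, and 0.30 (adjusted p = 0.021) and 0.55 (adjusted p = 0.0065) against 15A. None passed the fold threshold, and against CK the first became -0.06 and the second 0.38 with libraries scaled to the same total, a change of sign for XLOC_098324.

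XLOC_080488 (scaffold 24796, 6612 to 69497, coordinates shared by 4 loci) is described as GABA transporter 1-like, after the plasma membrane GABA importer of Arabidopsis. It had 15.9, 12 and 12.4 FPKM in 15A, 15.4, 20.1 and 19.3 in 15N, and 8.15, 8.52 and 3.95 in 15AN, against 9.96, 11.3 and 11.4 in CK. The 15AN libraries were below those of the 3 other groups, and the 15N libraries were above those of 15AN and CK. It was lower in 15AN than in 15N by a log2 fold change of -1.34 ± 0.23 (adjusted p = 0.0019), and with 5 added in place of 1 this was -0.99 and not called. Against 15A the value was -0.92 (adjusted p = 0.011), and against CK -0.65 (adjusted p = 0.04), neither called; the value against 15A passed the fold threshold without 15AN replicate 1 (-1.06) or 15AN replicate 2 (-1.09). Without 15AN replicate 3, the library at 3.95 FPKM, the values were -0.62 against 15A and -0.34 against CK, and over all libraries left out the adjusted p against CK reached 0.1.

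The remaining transporters were low. XLOC_059112, a probable GABA transporter 2 on scaffold 1895, averaged 5.50 ± 0.411 FPKM for 15A, 4.14 ± 0.354 for 15N and 3.86 ± 0.273 for 15AN, against 5.84 ± 0.421 in CK, and the 15N and 15AN libraries lay below all CK libraries (log2 fold changes -0.41 and -0.49, adjusted p = 0.0052 and 0.0022, not called). XLOC_094442 and XLOC_027906, both described as GABA transporter 1, were under the filter and were not tested. XLOC_094442, whose coordinates are shared by 3 loci, averaged 2.25 ± 0.218 FPKM for 15A, 1.16 ± 0.101 for 15N and 1.24 ± 0.355 for 15AN, against 1.16 ± 0.0579 in CK, with the 15A libraries above all others. XLOC_027906 ranged from 0.457 to 1.93 FPKM with all groups overlapping.

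**Figure D4:**
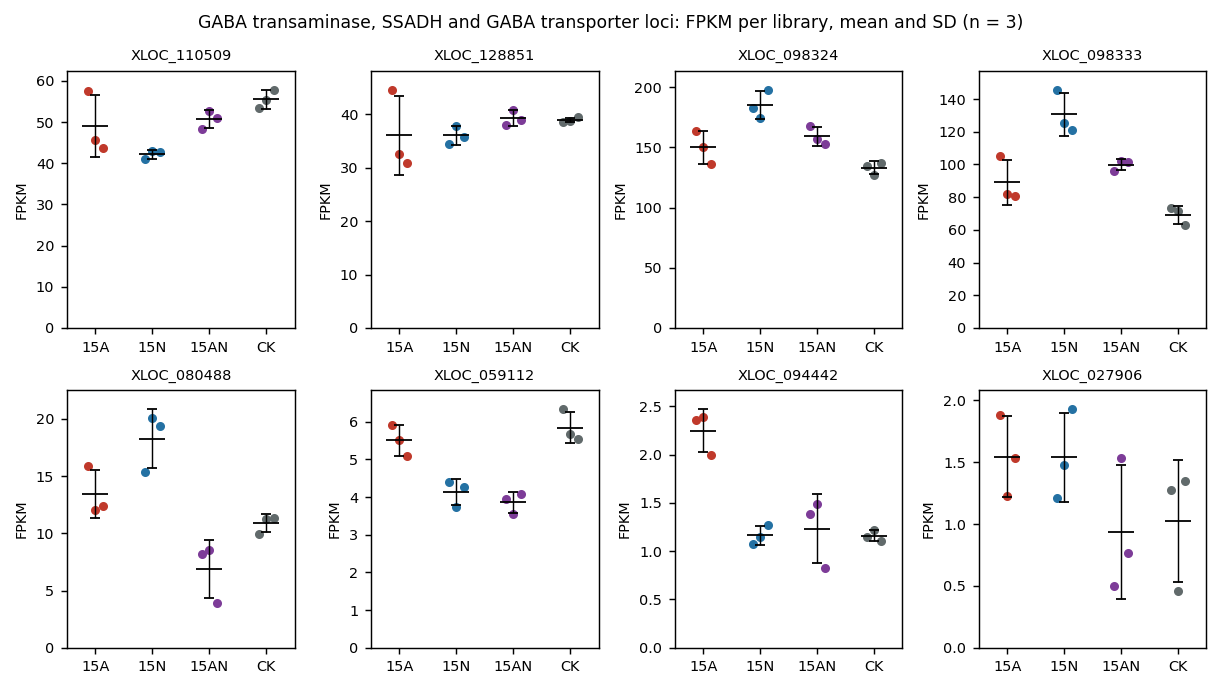
FPKM of the GABA transaminase (XLOC_110509), succinate-semialdehyde dehydrogenase (XLOC_128851) and 6 GABA transporter loci, one panel each with its own FPKM axis from 0, in 15A, 15N, 15AN and CK. Points are single libraries in the order of replicates 1 to 3, the mark is the mean and the bar is the SD (n = 3). XLOC_098324 and XLOC_098333 are highest in 15N, XLOC_080488 is lowest in 15AN, and 15A replicate 1 stands above the other 15A libraries for both enzymes.

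By mean level in CK the order was XLOC_098324 (133 FPKM), XLOC_077621 (109), XLOC_098333 (69.2), XLOC_110509 (55.5), XLOC_079358 (52.6), XLOC_128851 (38.9) and XLOC_005213 (19.8). The next 5, XLOC_080488, XLOC_059331, XLOC_067700, XLOC_092354 and XLOC_000540, had means of 10.9, 10.7, 10.6, 10.1 and 9.20 FPKM, and each overlapped its neighbour in the order. XLOC_110509 and XLOC_079358 also overlapped. Last came XLOC_059112 and XLOC_043331 (5.84 and 5.83 FPKM), which overlapped, and XLOC_094442 and XLOC_027906 (1.16 and 1.03 FPKM), which also overlapped. In 15A XLOC_067700 averaged 37.4 FPKM and stood just above XLOC_128851 in the order, overlapping both XLOC_110509 and XLOC_128851. In 15N it was the fifth of the 16 at 44.7 FPKM, above XLOC_110509 without overlap, and in 15AN it was the seventh at 29.1 FPKM, below XLOC_128851 without overlap.

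Comparisons among the treated groups, which share libraries with each other and with those above, gave few calls. None of the 14 loci was called in 15N against 15A, where 4.59% of all loci were called, although 7 had an unadjusted, and the same number an adjusted, p under 0.05 in limma, as did 22.9% of all loci by the adjusted p. None was called in 15AN against 15A, with 7.83% of all loci called and 5 of the 14 at an unadjusted p under 0.05. By the adjusted p 4 were under 0.05, beside 35.6% of all loci. Without 15A replicate 1, XLOC_128851 (0.30, adjusted p = 0.0022), XLOC_092354 (0.64, adjusted p = 0.0033), XLOC_067700, XLOC_077621, XLOC_098333 and XLOC_110509 also had an adjusted p under 0.05. XLOC_005213 then no longer did (0.61, adjusted p = 0.097). In 15AN against 15N the call was XLOC_080488, lower, where 6.19% of all loci were called and 3.39% were lower.

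Whether ammonium and nitrate added up was tested as an interaction, the difference of 15AN and 15A less the difference of 15N and CK on the log2 scale, which takes in each single-treatment difference with its sign turned. The salts that supplied the nitrogen differed between these groups too, and this cannot be told apart here. Called were 5 of 14 loci, where 22.5% of all loci were: 3 were negative (12.3% of all loci) and 2 positive (10.2%). At any fold change 11 of the 14 had an adjusted p under 0.05, where 48.1% of all loci did. XLOC_067700 had -2.31 ± 0.24 (adjusted p = 3.1e-05): given apart, ammonium and nitrate each raised it, and 15AN was not above either of them. The value was -2.51 to -2.13 with any 1 library left out and -1.48 with libraries scaled to the same total. XLOC_059331 (-1.16, adjusted p = 0.017) and XLOC_080488 (-1.62, adjusted p = 0.0022) were also negative, the call of XLOC_059331 ending without 15A replicate 3 (-0.88), without CK replicate 1 (-0.99) and with 5 added in place of 1 (-0.94). XLOC_005213 (2.19, adjusted p = 0.0016) and XLOC_000540 (1.03, adjusted p = 0.00076), both below CK in each single treatment, were positive; XLOC_000540 was at 0.96 without 15N replicate 3, 0.91 without 15AN replicate 2 and 0.87 with quantile normalization, and was then not called. XLOC_079358, at -0.95, was called at -1.0 to -1.01 without 15A replicate 3, 15AN replicate 1, CK replicate 1 or CK replicate 2. Same-total scaling moved the median interaction of all loci by 0.80, and XLOC_059331 and XLOC_080488 were then at -0.34 and -0.81 and not called. Under it 8 loci were called, 7 positive and 1 negative, with XLOC_077621 (1.71), XLOC_092354 (1.5), XLOC_110509 (1.30), XLOC_043331 (1.14) and XLOC_128851 (1.10) joining the calls. Of all loci tested, 37.3% were called under the same scaling, 33% positive and 4.36% negative.

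**Figure D5:**
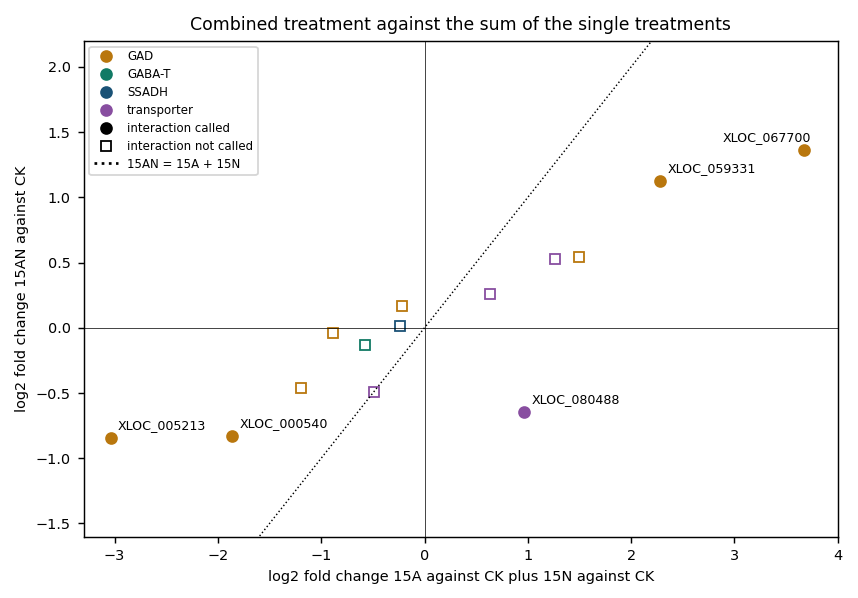
Log2 fold change in 15AN against CK (vertical axis) against the sum of the log2 fold changes in 15A and in 15N against CK (horizontal axis) for the 14 loci tested; the diagonal is where the combined treatment equals the sum. XLOC_067700 lies farthest below the diagonal, at an interaction of -2.31, and XLOC_005213 farthest above it, at 2.19.

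The loci whose pattern was most like that of XLOC_067700 were found by Pearson's r of log2(FPKM + 1) over the 12 libraries, which fall into 4 groups, so that r largely follows the group means. Outside the shunt the highest were XLOC_006875, a regulatory subunit of protein phosphatase 1 (r = 0.988), XLOC_012752, with an unnamed protein match (0.984), and XLOC_027988, a RING/U-box protein of the family that holds many ubiquitin ligases (0.980). Among the shunt loci r was 0.90 for XLOC_059331 and 0.76 for XLOC_079358, and lowest, at -0.88, for XLOC_000540.

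The genes around the shunt were taken from lists chosen by description, and each list's median log2 fold change stands beside the 0.08, 0.08 and 0.07 of all loci tested in 15A, 15N and 15AN. Of all loci tested, 7.49%, 6.85% and 5.3% were called higher and 6.82%, 7.64% and 6.93% lower in the same order, and the counts of each list stand against these. The values of these lists were not computed with libraries scaled to the same total. That scaling moves the median of all loci by -0.58, -0.49 and -0.27, and whether the calls of these lists hold under it was not tested. Glutamate supply, the substrate side, had 20 tested loci of 37, with 4 called in 15A and 2 in 15N, all higher (7.49% and 6.85% of all loci), and 1 in 15AN, lower (6.93%); its medians were 0.07, 0.31 and 0.25. XLOC_097848, glutamate synthase 1, which makes glutamate from glutamine, averaged 177 ± 29.0 FPKM for 15A, 153 ± 10.8 for 15N and 126 ± 5.57 for 15AN, against 65.9 ± 0.691 in CK, with log2 fold changes of 1.40, 1.20 and 0.92, the last not called. XLOC_131375, a plastid glutamine synthetase, had 1.5, 1.26 and 0.73, the last not called. XLOC_109827, glutamate dehydrogenase A, which links glutamate with 2-oxoglutarate, averaged 134 ± 7.97 FPKM for 15A, 69.6 ± 4.94 for 15N and 48.3 ± 0.961 for 15AN, against 60.8 ± 0.582 in CK, and rose in 15A (1.12, adjusted p = 5.8e-07). In 15N and 15AN its values of 0.19 and -0.32 were not called.

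Calmodulin is the activator of most plant glutamate decarboxylases. The list of descriptions that start with calmodulin, calmodulin-like proteins included, had 9 tested loci. Of these, 1 was higher in each treatment, and 1, 2 and 1 were lower in 15A, 15N and 15AN. In the same order, 14.3%, 14.5% and 12.2% of all loci were called in either direction. The medians of the list were 0.29, 0.26 and 0.07. XLOC_133365 rose in all 3 treatments, to 10.5, 12.5 and 10.4 FPKM in 15A, 15N and 15AN, against 2.68 in CK (log2 fold changes 1.71, 1.92 and 1.70, SE 0.30 each). XLOC_113034 fell in all 3, with log2 fold changes of -1.36, -1.26 and -1.63. XLOC_090308, calmodulin-like protein 3, fell in 15N (-1.37), and had -0.96 in 15A and -0.85 in 15AN, not called.

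Polyamines are a second source of GABA, through amine oxidases, and 10 loci of this route were tested: 1 was higher and 1 lower in 15A, and 2 were lower in 15N and in 15AN, beside 7.64% and 6.93% of all loci lower in these. The medians were -0.13, -0.02 and -0.45. XLOC_052245, arginine decarboxylase, which starts polyamine synthesis, averaged 66.3 ± 1.54 FPKM for 15A, 25.7 ± 2.18 for 15N and 18.9 ± 0.546 for 15AN, against 26.0 ± 1.24 in CK, and rose in 15A (1.32, adjusted p = 2.8e-07). XLOC_041040, copper amine oxidase, which oxidises polyamines, fell in all 3 treatments, with log2 fold changes of -1.58, -2.03 and -1.77. XLOC_107742, thermospermine synthase, was called lower in 15N and 15AN, and it is listed at 0 in the 15N libraries, so that no fold change is given for it.

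Of the steps that follow the shunt, 18 loci for succinate dehydrogenase, succinyl-CoA ligase and 2-oxoglutarate dehydrogenase were tested, with medians of 0.30, 0.12 and 0.24. None was called in 15A, where 9 had an unadjusted p under 0.05 in limma and 9 an adjusted p under 0.05 (51.2% of all loci), and 1 was called higher in 15N, where 6.85% of all loci were (XLOC_069988, succinate dehydrogenase 5, 1.01, adjusted p = 0.00011). XLOC_069988 had 0.81 in 15A and 0.95 in 15AN, not called, so its call in 15N stood at the fold threshold. Called lower in 15AN was XLOC_074022, a succinyl-CoA ligase listed at 0 there. Of all loci, 14.3%, 14.5% and 12.2% were called in 15A, 15N and 15AN, beside which stand the lists of 5 and 4 loci that follow. Of 5 proline loci, proline being another amino acid made from glutamate, XLOC_144616, proline dehydrogenase 2, which degrades it, fell in 15N and 15AN, with log2 fold changes of -1.40 and -1.45, and had -0.70 in 15A, not called; the medians of the list were 0.22, 0.24 and -0.17. Aluminum-activated malate transporters include anion channels that GABA closes in wheat, and 4 were tested, with medians of -0.06, 0.27 and 0.20. XLOC_138237 rose in 15N (1.17) and 15AN (1.19), and had 0.84 in 15A, not called. XLOC_086111 fell in 15A (-1.52) and 15N (-1.53), and had -0.40 in 15AN, not called. The 1 tested locus for reduction of the semialdehyde was not called, and no locus matched alanine aminotransferase.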

How the data were processed

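RNA of P. notoginseng roots was sequenced in 12 libraries prepared with ribosomal RNA removal. Reads were aligned by the authors with TopHat 2.0.13 and Bowtie2 to the genome of the species, and they assembled and merged loci with Cufflinks 2.2.1, and deposited FPKM values made by Cuffnorm 2.2.1, with descriptions from BLASTX and BLASTN searches. The file holds no read counts. The study gives an approximate number of reads, the same for every library, which was not used here. The SD of FPKM follows from the 3 libraries of its group. The SE and p-value of a log2 fold change rest on a spread pooled over all groups, which eBayes draws toward that of other loci. XLOC_067700 thus had the same SE, 0.17, for 15A, 15N and 15AN against CK. The study's own test with edgeR was not repeated, since it needs counts.

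All 4 groups entered 1 linear model in limma 3.58.1 under R 4.3.3 (eBayes with trend) on log2(FPKM + 1), which understates the change of low loci, over the 22592 loci whose mean reached 5 FPKM in any group. P-values are two-sided and adjusted by Benjamini-Hochberg over all loci tested; SD is given for FPKM and SE for log2 fold changes. The method was tested on simulated data. Figures were drawn with matplotlib 3.10.9.

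The members, the gene lists and the rules (all expressed members; the 5 loci most like XLOC_067700; up to 3 called loci of each list) were chosen with earlier results of these data known. Alternatives were a pseudocount of 0.1 or 5, other filters, scalings, a replicate block, a fit of fewer groups and each library left out. Coordinates are as in the file. No sequences were used.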

Additional observations from a re-analysis of the deposited data

Results flagged for a closer look

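The effect of nitrate differed with ammonium present or absent, by the interaction test in limma, for 11 of the 14 loci tested at any fold change, where 48.1% of all loci did so. Negative values, where the combined treatment lay below the sum of the single ones, were those of XLOC_067700 (-2.31, adjusted p = 3.1e-05), XLOC_080488 (-1.62, adjusted p = 0.0022), XLOC_059331 (-1.16, adjusted p = 0.017), XLOC_079358 (-0.95, adjusted p = 0.00047), XLOC_098333 (-0.73, adjusted p = 0.0035) and XLOC_098324 (-0.38, adjusted p = 0.018). Positive values were those of XLOC_005213 (2.19, adjusted p = 0.0016), XLOC_000540 (1.03, adjusted p = 0.00076), XLOC_077621 (0.84, adjusted p = 0.00083), XLOC_092354 (0.73, adjusted p = 0.024) and XLOC_110509 (0.44, adjusted p = 0.019). With libraries scaled to the same total, XLOC_098333 and XLOC_098324 turned to 0.13 and 0.49, and XLOC_079358 was at -0.09. Without 15A replicate 1 the interaction of XLOC_128851 was 0.41 (adjusted p = 0.0013), against 0.25 (adjusted p = 0.24) with all libraries.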

How the results depend on the processing

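Over 23 settings, the 98 log2 fold changes of the 14 loci in 7 comparisons gave 2212 alternative values. Of these, 2105 kept their direction and their side of the thresholds, 22 lost a call, 29 gained one and 56 uncalled values changed sign, 18 of them with libraries scaled to the same total. No called value changed sign. A pseudocount of 5 left 1 of 14 loci called against CK both in 15N (8.66% of all loci) and in 15AN (7.25%). It left 0 in 15AN against 15N (3.55%) and 3 in the interaction (15.2%). A pseudocount of 0.1 gave 2 calls in 15AN against 15A (8.76% of all loci). Same-total scaling gave 1 there (9.03%) and 8 in the interaction (7 positive, 1 negative). In that interaction 37.3% of all loci were called, 33% positive and 4.36% negative. Loci of at least 300 nt, an alternative chosen after seeing the data, left 1 call in 15AN against CK, since XLOC_059331 is shorter. With each library left out in turn, the counts were 3 to 4 in 15A and in 15N, and 1 to 3 in 15AN, against CK; 0 to 0 in 15N against 15A, 0 to 1 in 15AN against 15A, 1 to 1 in 15AN against 15N and 4 to 6 in the interaction. Replicate numbers did not pair the samples: correlations of same-numbered deviations ran from -0.0998 to 0.0505, and a library correlated best with its own number in 17 of 36 cases. With the replicate number as a block the counts were 3, 4 and 2 against CK, 0, 0 and 1 among treatments and 5 in the interaction, as without it. FPKM without counts limits what can be said of the loci under 5 FPKM.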
